A study of Mus musculus with 32 samples.

Results

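The expression of 10 genes that make NAD or clear its precursor nicotinamide was followed in mouse liver. They were chosen by name from the 20076 genes of the deposited count table: Kmo, Haao, Acmsd and Qprt of the kynurenine route, Naprt and Nadsyn1 of the Preiss-Handler route, the adenylyl transferases Nmnat1 and Nmnat3, Nampt of the salvage route and Nnmt, which clears nicotinamide. The study asked how the liver responds to the loss of medium-chain acyl-CoA dehydrogenase (MCAD), an enzyme of mitochondrial fatty acid oxidation encoded by Acadm. Male C57BL/6J mice, either wild type (WT) or Acadm-knockout (KO), received a low-fat (LF) or a high-fat (HF) diet for 6 weeks and were then killed fed or after 16 h without food, which gave 8 groups of 4 mice. Ages were labelled 7.5 to 16, without a unit. The knockout is not limited to the liver, so the groups do not separate loss of MCAD in hepatocytes from loss elsewhere. RNA of whole liver was counted by its 3′ ends, and in such bulk samples fewer cells of a type cannot be told apart from less RNA per cell. Values are counts per 1000000 library counts (CPM), with libraries scaled by the trimmed mean of M-values.

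Library totals ran from 2031053 to 4292200 counts, with a median of 2899001. KO HF fasted replicate 4 went against its tissue label, with 38358 CPM summed over 12 heart muscle genes and 887 CPM over the 9 hepatocyte genes found in the table, against at most 202 and at least 46978 CPM in the 30 mice used. WT LF fed replicate 2 also stood apart, with 1250 CPM over 6 stellate cell genes against 378 to 583 CPM, and both mice were left out. Among the 30 mice, the pancreatic acinar sum reached 12473 CPM in WT HF fasted replicate 2 and 1853 CPM in a KO HF fed mouse, with a median of 2.22 CPM, and the adrenal cortex sum reached 256 CPM in KO LF fasted replicate 3, with a median of 0.892 CPM. The neutrophil sum was 3.09 to 22.2 CPM, the Kupffer cell sum was 193 to 564 CPM, the 2 kidney genes in the table were at 0, and the adipose sum without Car3, which liver itself expresses, was at most 52.8 CPM. Acadm lay between 190 and 748 CPM in the 15 WT mice and between 8.98 and 37.1 CPM in the 15 KO mice, so every library matched its genotype label. All 10 members passed the filter on low counts, among 11566 genes tested.

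NAD carries electrons in fuel oxidation and is consumed by sirtuins, poly(ADP-ribose) polymerases and CD38, which release nicotinamide. Liver can build the nicotinic ring from tryptophan through kynurenine, hydroxyanthranilate and quinolinate, can take up nicotinic acid (Preiss-Handler route), and can recycle nicotinamide (salvage route). All routes meet at the enzymes of the Nmnat family, while methylation of nicotinamide removes it from recycling.

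The bases upstream of the start are shown for 3 members whose level differed with fasting, Haao, Qprt and Nampt. The set of RefSeq promoters used here held 8 of the 10 members, not Naprt and Nnmt. Each run holds the 250 bases before the start of transcription in the RefSeq annotation of GRCm38.p6, written 5′ to 3′ on the gene's strand: Haao at chr17:83846791-83847040, minus strand; Qprt at chr7:127122030-127122279, minus strand; Nampt at chr12:32820085-32820334, plus strand. The Haao and Nampt runs lie inside the gene spans given below, and the Qprt run overlaps the 5′ edge of its span. The starts used here are therefore not the outermost starts of those spans. Capitals mark AGGTCA, the half-site of nuclear receptors, or its reverse complement TGACCT.
Haao: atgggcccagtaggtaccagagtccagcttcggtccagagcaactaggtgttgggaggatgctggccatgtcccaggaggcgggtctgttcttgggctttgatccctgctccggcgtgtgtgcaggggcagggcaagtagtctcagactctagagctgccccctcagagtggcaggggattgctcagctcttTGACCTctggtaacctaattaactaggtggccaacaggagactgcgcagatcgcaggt
Qprt: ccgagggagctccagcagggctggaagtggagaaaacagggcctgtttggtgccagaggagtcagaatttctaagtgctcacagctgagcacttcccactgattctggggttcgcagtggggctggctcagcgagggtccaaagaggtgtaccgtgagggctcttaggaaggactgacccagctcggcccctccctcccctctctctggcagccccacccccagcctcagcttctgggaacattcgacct
Nampt: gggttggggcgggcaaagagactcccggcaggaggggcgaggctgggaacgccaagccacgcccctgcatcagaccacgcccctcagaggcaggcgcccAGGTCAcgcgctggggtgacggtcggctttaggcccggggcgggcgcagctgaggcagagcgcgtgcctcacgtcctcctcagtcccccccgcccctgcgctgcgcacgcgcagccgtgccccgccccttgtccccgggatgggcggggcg

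Haao and Nampt each held 1 half-site, beginning 58 and 151 bases before the start, and Qprt held none. The half-site was found in 14.0% of the 32851 mouse promoters in the same set, so it is a common word. It was searched for alone after the sequences were seen. None of these 3 genes held, on either strand of the bases from 250 before to 50 after the start, an E-box (CACGTG, in 7.15% of promoters), a cyclic AMP response element (TGAC followed directly by its reverse complement GTCA, in 1.79%), a forkhead motif (GTAAACA, in 3.65%) or 2 AGGTCA half-sites spaced by 1 base (in 0.0396%). A missing match says only that these letters are not in this window.

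**Figure D1:**
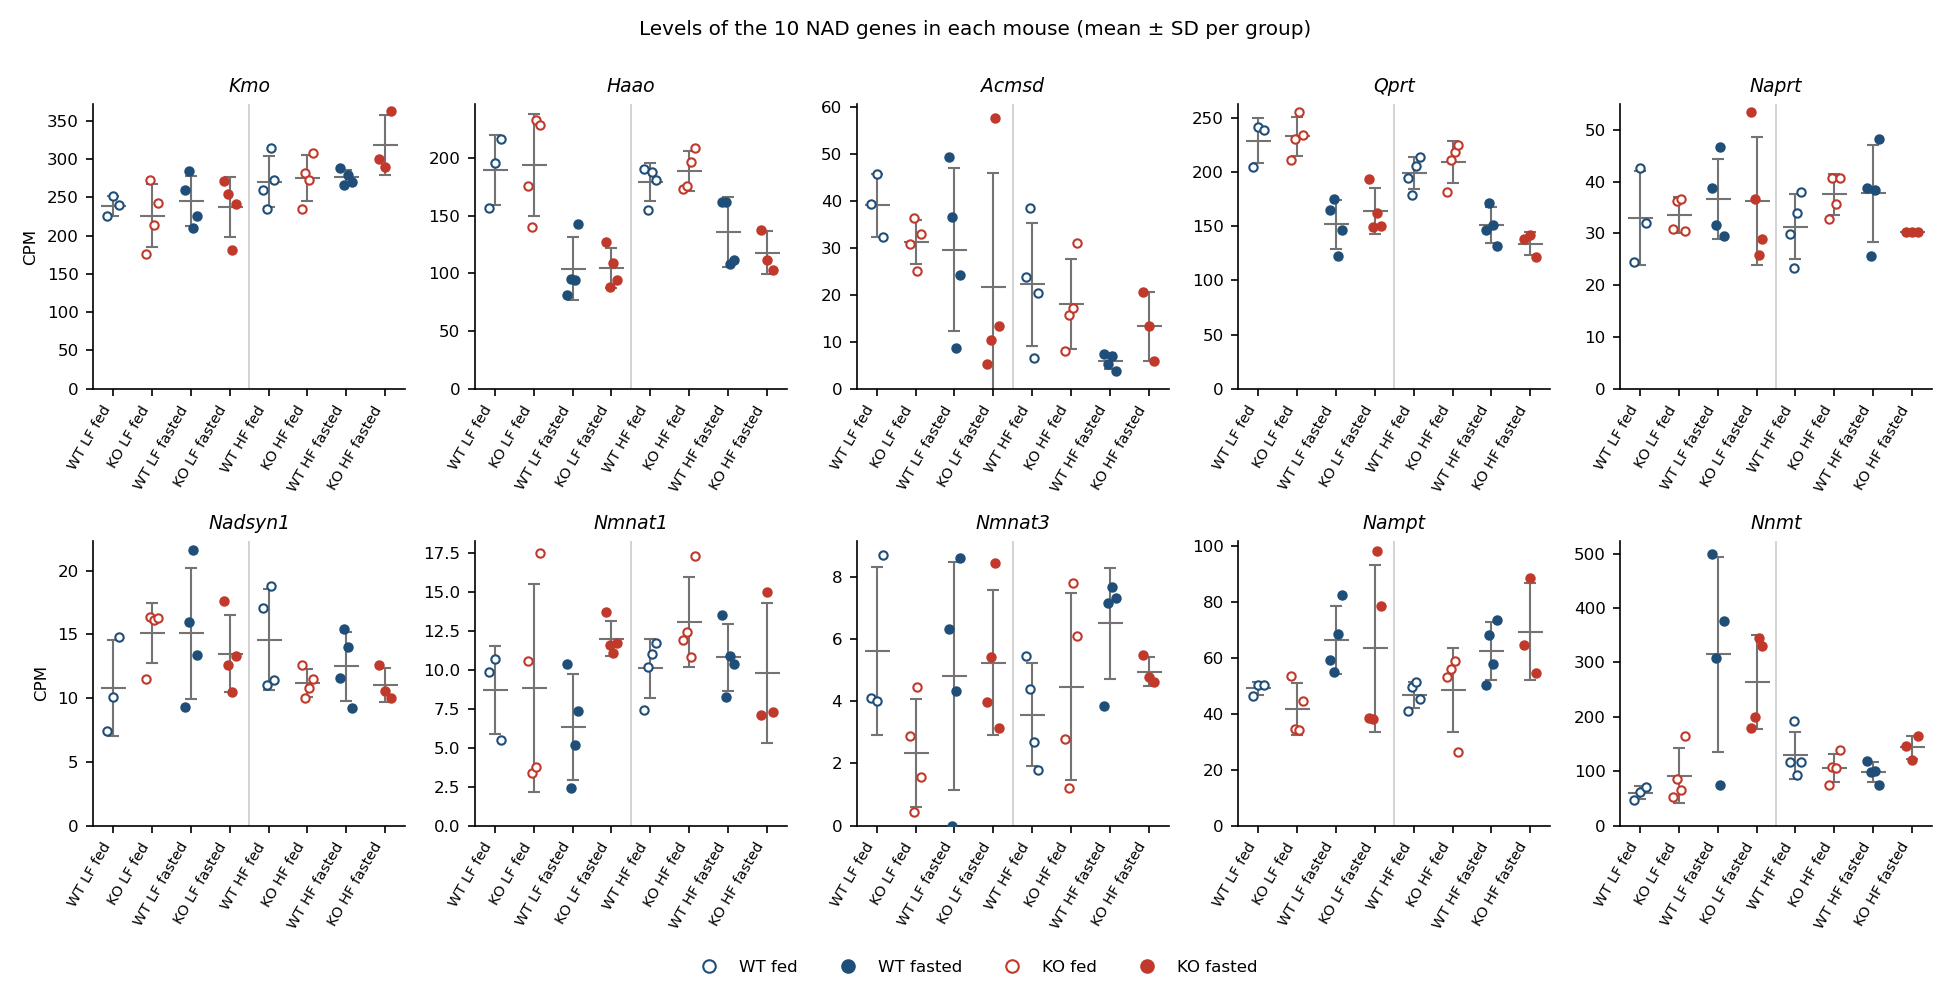
Level of each of the 10 genes in CPM (vertical axes, linear from 0) in the 30 mice, by group. Points are mice (open fed, filled fasted, blue WT, red KO), grey marks are mean ± SD, and the grey line parts LF from HF. Haao and Qprt lay lower in fasted groups, Nampt lay higher, and Nnmt reached 180 to 500 CPM in 7 of 8 fasted LF mice.

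Fasting was the condition that moved most members. Averaged over genotypes and diets, Haao and Qprt fell and Nampt and Nnmt rose, so 4 of the 10 members passed an adjusted p of 0.05 (edgeR quasi-likelihood test, Benjamini-Hochberg over all genes tested), while 18.9% of all genes tested did. Of those 2187 genes, 1130 rose and 1057 fell. The median log2 change was 0.04 for the 10 members and -0.0022 for all genes. Of the marker sums, that of 9 hepatocyte genes was 46978 to 64798 CPM fed and 47688 to 76068 CPM fasted, and the adipose sum was 2046 to 3639 CPM fed and 28.5 to 2335 CPM fasted. Without Car3 it was 0.0 to 47.5 CPM fed and 0.0 to 52.8 CPM fasted. The part of other cells in the members' values was not tested.

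Haao and Qprt encode enzymes of the lower kynurenine route: 3-hydroxyanthranilate dioxygenase opens the ring that becomes quinolinate, and quinolinate phosphoribosyltransferase commits quinolinate to NAD. Qprt (ENSMUSG00000030674, chr7:127107114-127122226, minus strand, GRCm38) was at 205, 242 and 239 CPM in the WT LF fed mice and at 165, 175, 123 and 147 CPM after fasting. In KO LF mice it was at 211, 231, 256 and 234 CPM fed and at 194, 149, 162 and 150 CPM fasted. In WT HF mice it was at 195, 179, 206 and 214 CPM fed and at 147, 172, 151 and 132 CPM fasted. Thus the lowest fed mouse lay above the highest fasted mouse in each of these groups. KO HF mice gave the same picture, with 182, 211, 219 and 225 CPM fed and 138, 142 and 122 CPM fasted. On average Qprt fell by 0.53 ± 0.07 on the log2 scale (SE; 1.45-fold lower, adjusted p = 4.49e-07).

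Haao (ENSMUSG00000000673, chr17:83831156-83847963, minus strand) was at 157, 196 and 217 CPM in WT LF fed mice against 81.2, 95.5, 94.4 and 143 CPM in WT LF fasted mice. In KO LF mice it was at 176, 140, 233 and 229 CPM fed against 127, 88.3, 109 and 94.2 CPM fasted. Neither pair of groups overlapped. In WT HF mice the fed values of 191, 155, 188 and 181 CPM overlapped with the fasted values of 162, 162, 108 and 112 CPM. In KO HF mice the fed values of 173, 176, 197 and 209 CPM lay above the fasted values of 138, 112 and 103 CPM. The average fall was -0.71 ± 0.10 log2 (1.64-fold lower, adjusted p = 3.18e-07).

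The first gene of this route among the members, Kmo, encodes kynurenine 3-monooxygenase and did not pass the test for fasting. Kmo (ENSMUSG00000039783, chr1:175620381-175662116, plus strand) ranged from 176 to 314 CPM in fed and from 181 to 362 CPM in fasted mice, a difference of 0.09 ± 0.08 log2 (95% interval -0.07 to 0.24, adjusted p = 0.521). Its span overlaps Fh1 on the other strand, and the strand setting of the counting is not given in the sources used here, so reads of the 2 genes may not be told apart.

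Acmsd encodes the decarboxylase that diverts the precursor of quinolinate away from NAD. Acmsd (ENSMUSG00000026348, chr1:127729413-127767978, plus strand) was at 39.2, 45.6 and 32.3 CPM in WT LF fed and at 49.2, 36.5, 8.63 and 24.3 CPM in WT LF fasted mice. In KO LF mice it was at 30.8, 36.3, 25.1 and 32.9 CPM fed and at 5.29, 10.3, 57.5 and 13.3 CPM fasted. KO LF fasted replicate 3, the mouse with the highest adrenal cortex sum, was thus also the highest of all 30 mice for Acmsd, and the part of that tissue in its value was not tested. The average difference with fasting was -0.83 ± 0.31 log2 (adjusted p = 0.0686), and -1.10 (adjusted p = 0.0025) without that mouse. It was -0.94 (adjusted p = 0.0492) without KO HF fasted replicate 1, -0.91 (0.046) without WT LF fasted replicate 1 and -0.90 (0.0341) without WT HF fed replicate 3, and DESeq2 (-0.82, 0.0407) and limma voom (-0.97, 0.0114) called it too. An antisense gene, 2900009J06Rik, overlaps Acmsd, with 77 counts in all against 2138 for Acmsd.

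Nampt, the enzyme that limits the salvage of nicotinamide, rose with fasting. Nampt (ENSMUSG00000020572, chr12:32819545-32853349, plus strand) was at 46.4, 50.3 and 50.3 CPM in WT LF fed and at 59.2, 55.0, 68.6 and 82.3 CPM in WT LF fasted mice. In KO LF mice it was at 53.5, 34.6, 34.0 and 44.4 CPM fed and at 38.4, 38.1, 98.1 and 78.6 CPM fasted. The WT LF groups did not overlap, and the KO LF groups did, with 2 fasted mice at the fed level and 2 far above it. On HF the values were 40.8, 49.4, 51.2 and 45.2 CPM in WT fed and 50.1, 68.1, 57.7 and 73.6 CPM in WT fasted mice. In KO HF mice they were 53.1, 55.9, 58.9 and 26.3 CPM fed and 64.7, 88.5 and 54.7 CPM fasted, again with overlap. The average rise was 0.49 ± 0.13 log2 (1.40-fold, adjusted p = 0.00466), and in none of the 4 genotype and diet strata did Nampt pass on its own (0.41 to 0.59 log2). Nampt shares its strand and part of its span with the non-coding gene Gdap10, so reads in the shared part are uncertain.

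Nnmt, nicotinamide N-methyltransferase, uses the same substrate as Nampt and rose by 0.99 ± 0.21 log2 on average (1.98-fold, adjusted p = 0.00132). Nnmt (ENSMUSG00000032271, chr9:48591877-48605153, minus strand) differed with fasting mainly on LF. It was at 47.6, 62.0 and 71.3 CPM in WT LF fed mice and at 500, 308, 73.7 and 376 CPM in WT LF fasted mice. In KO LF mice it was at 52.2, 84.7, 65.2 and 165 CPM fed and at 180, 200, 345 and 330 CPM fasted. The fasted mice lay above the fed mice in both LF pairs, although WT LF fasted replicate 3 exceeded the highest fed mouse only slightly. On HF, WT mice were at 116, 193, 93.0 and 116 CPM fed and at 119, 99.3, 101 and 74.0 CPM fasted. KO HF mice were at 74.4, 107, 106 and 138 CPM fed and at 146, 121 and 164 CPM fasted. Fed and fasted mice overlapped in both HF pairs.

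The remaining members did not pass the test for fasting. Naprt, which starts the nicotinic acid route, was at 23.4 to 42.6 CPM fed and 25.6 to 53.4 CPM fasted (0.06 ± 0.11 log2), and its span overlaps Eef1d on the same strand. Nadsyn1, the NAD synthetase that ends the kynurenine and nicotinic acid routes, was at 7.45 to 18.8 CPM fed and 9.25 to 21.6 CPM fasted (0.02 ± 0.14 log2). Their 95% intervals were -0.17 to 0.28 and -0.27 to 0.31 log2. Nmnat1, the nuclear member of its family, was at 3.37 to 17.5 CPM fed and 2.41 to 15.0 CPM fasted (-0.09 ± 0.20 log2). Nmnat3, its mitochondrial relative, gave only 0 to 34 counts per mouse, at most 8.71 CPM, and its difference of 0.48 ± 0.31 log2 had a 95% interval of -0.14 to 1.10, so a difference was not detectable at this depth. The pseudogene Gm28530 overlaps Nmnat3 on the same strand, which leaves its reads uncertain.

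With all 32 mice in the fit, 2 members passed for fasting, while 1553 of 11502 genes did. The 2 were Haao (-0.75 log2, adjusted p = 0.0332) and Nampt (0.63, 0.00943), whereas Qprt (-0.61, 0.0657) and Nnmt (0.78, 0.0843) did not pass. Libraries were run on 2 lanes, and lane 7 held no WT LF fed mouse. Within a lane, the fit had 1 term each for fasting, diet and genotype instead of the 8 group means. Its values are therefore not the same contrast as the average above. Within lane 7 no member passed, and 344 of 11303 genes did. Haao, Qprt, Nampt and Nnmt differed there by -0.44, -0.39, 0.43 and 0.80 log2. Within lane 8, where 1449 of 12261 genes passed, the 4 members that passed were Haao, Qprt, Nampt and Acmsd. Nnmt was at 1.04 log2 in lane 8 (adjusted p = 0.178).

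Fasting was then compared within each genotype and diet. In WT LF mice, where 7.54% of genes passed, Haao (-0.87 ± 0.20 log2, adjusted p = 0.00242) and Qprt (-0.59 ± 0.15, 0.00882) fell and Nnmt rose (2.39 ± 0.47, 0.00157). In KO LF mice, where 13.8% passed, these 3 genes moved the same way: Haao -0.90 ± 0.18 (0.000625), Qprt -0.51 ± 0.14 (0.0101) and Nnmt 1.52 ± 0.41 (0.0134). In WT HF mice, where 0.424% passed, no member did by edgeR, DESeq2 or voom, and 3 (Haao, Qprt and Acmsd) had an unadjusted p below 0.05, as did 1063 of the 11566 genes. In KO HF mice, where 0.527% passed, Qprt fell by 0.64 ± 0.15 (adjusted p = 0.0375). That call was lost in 7 of the 30 fits that left out 1 mouse, with an adjusted p of up to 0.309 without KO HF fasted replicate 3. In WT LF mice, Qprt was at an adjusted p of 0.057 without WT LF fed replicate 3 and 0.0506 without replicate 4, and in KO LF mice Nnmt was at 0.0516 without KO LF fed replicate 1. With only the mice of the 2 groups compared, Nnmt in WT LF mice (2.39 log2, adjusted p = 0.108), Qprt in KO LF mice (-0.52, 0.101) and Qprt in KO HF mice (-0.65, 0.0511) did not pass. With the 2 mice back in, 1 of them the library with heart transcripts, no member passed in any of these 4 strata. A fit with WT LF fed replicate 2 alone put back was not run, so the share of each mouse in this loss was not tested.

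**Figure D2:**
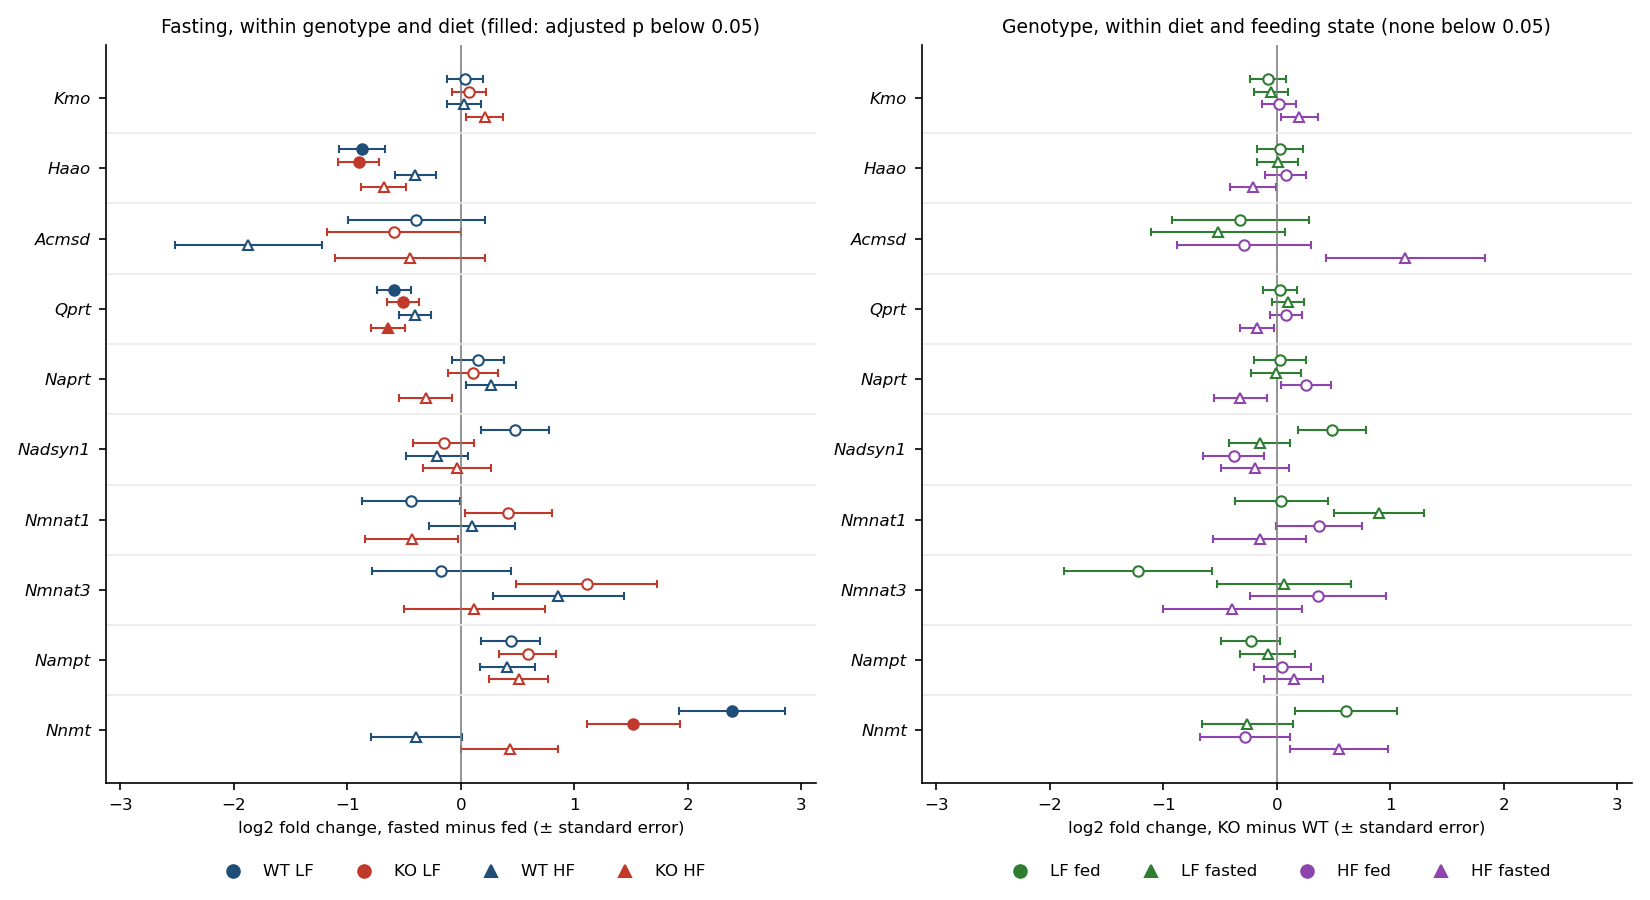
Log2 fold change ± SE of the 10 genes by fasting within each genotype and diet (left) and by genotype within each diet and feeding state (right). On the left, circles are LF and triangles HF, blue WT and red KO; on the right, circles are fed and triangles fasted, green LF and purple HF. Filled symbols mark an adjusted p below 0.05. Nnmt stood at 2.39 and 1.52 on LF and at -0.39 and 0.43 on HF, and no genotype difference passed.

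Whether diet changed the response to fasting was tested directly. Nnmt was the only member that passed (fasting effect on HF minus that on LF, -1.93 ± 0.43 log2, adjusted p = 0.0147), while 2.46% of all genes did. Its fasting effect was 2.39 and 1.52 log2 in WT and KO on LF, and -0.39 ± 0.40 and 0.43 ± 0.43 on HF. The difference kept its call in all 30 fits without 1 mouse (-2.16 to -1.78) and lost it with all 32 mice (-1.92, adjusted p = 0.18). For Qprt the same contrast was 0.03 ± 0.15 (95% interval -0.27 to 0.32), and for Haao 0.34 ± 0.19 (-0.04 to 0.73).

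Diet itself moved 1 member. Acmsd was lower on HF by 1.14 ± 0.31 log2 on average (2.20-fold lower, adjusted p = 0.0433), while 3.49% of all genes tested passed. On HF it was at 23.7, 38.4, 6.55 and 20.3 CPM in WT fed and at 7.43, 5.27, 6.98 and 3.85 CPM in WT fasted mice. In KO HF mice it was at 8.03, 15.6, 17.1 and 31.1 CPM fed and at 20.6, 13.3 and 5.96 CPM fasted. The 4 WT HF fasted mice lay below all 4 WT LF fasted mice, and the other pairs overlapped. This call sat at the threshold: it was lost in 22 of the 30 fits that left out 1 mouse (adjusted p 0.0199 to 0.0923), and the change was -0.87 (0.0579) without KO LF fasted replicate 3 and -1.13 (0.0634) without WT HF fasted replicate 2, the mouse with the highest acinar sum. It was lost with all 32 mice as well (-1.29, adjusted p = 0.069), with age as a term (-1.14, 0.0537), and within lane 7 (-1.26, 0.432) and lane 8 (-0.90, 0.0798).

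Kmo was at 176 to 284 CPM on LF and 235 to 362 CPM on HF, a difference of 0.26 ± 0.08 log2 that missed the threshold (adjusted p = 0.0503). It passed with DESeq2 (0.0196), limma voom (0.0331) and age as a term (0.0261), and in 6 of the 30 fits without 1 mouse. Qprt was at -0.17 ± 0.07 (adjusted p = 0.236) and Nampt at 0.05 ± 0.13 (0.915). Within single conditions, diet moved Nnmt in WT fasted mice (-1.68 ± 0.41 log2, adjusted p = 0.0426), where 1.12% of genes passed, and this call was lost in 18 of the 30 fits without 1 mouse and with only the mice of the 2 groups compared (-1.67, 0.262). Acmsd differed more there, by -2.30 ± 0.64 log2, and missed the threshold (adjusted p = 0.0855), but passed with DESeq2 (-2.33, 0.012) and with only the 2 groups (-2.30, 0.0175). No member passed in KO fasted mice (1.68% of genes), WT fed mice (0.0778%) or KO fed mice (0.00865%), by edgeR, DESeq2 or voom. There 1, 1 and 0 members had an unadjusted edgeR p below 0.05, against 1510, 604 and 840 of the 11566 genes.

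The comparison of KO with WT, the study's main question, showed no member past the threshold. Acadm was the 1 gene called on average (0.00865% of genes), at -4.44 ± 0.12 log2. It was also the 1 gene called in LF fed (0.00865%), LF fasted (0.00865%), HF fed (0.00865%) and HF fasted mice (0.00865%). DESeq2 and voom called no member either. With an unadjusted edgeR p below 0.05 there were 0 members on average, against 335 of the 11566 genes, and 1 in the 4 conditions. Genes below that cut numbered 450 in LF fed, 684 in LF fasted, 316 in HF fed and 288 in HF fasted mice. In the kynurenine route, the 95% intervals of the averages were -0.14 to 0.16 log2 for Qprt, -0.13 to 0.19 for Kmo and -0.21 to 0.17 for Haao. For Acmsd of the same route the interval was far wider, at -0.89 to 0.89. The intervals were also wider for Nampt (-0.28 to 0.23), Nnmt (-0.28 to 0.59), Nmnat1 (-0.11 to 0.69) and Nmnat3 (-0.91 to 0.32). In the Preiss-Handler route they were -0.24 to 0.22 for Naprt and -0.34 to 0.23 for Nadsyn1. A p that misses the threshold does not show that KO and WT were alike.

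The member with the low unadjusted p was Nmnat1 in LF fasted mice. It was at 10.4, 2.41, 5.18 and 7.34 CPM in WT and at 13.7, 11.6, 11.1 and 11.7 CPM in KO mice, which did not overlap. The difference was 0.90 ± 0.40 log2 (edgeR, adjusted p = 0.811), from 6 to 45 counts per mouse. Nmnat3 in LF fed mice was at 4.09, 4.02 and 8.71 CPM in WT and at 2.88, 0.422, 4.46 and 1.56 CPM in KO, a difference of -1.22 ± 0.65 (adjusted p = 1.0). No dependence of the fasting effect (0.0% of genes passed) or of the diet effect (0.0%) on genotype was called by edgeR. Unadjusted p was below 0.05 for 573 and 397 genes and for 0 members in either, and DESeq2 and voom called 0 members.

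Competing enzymes were also compared within each mouse as ratios of counts. Acmsd and Qprt lie on either side of the branch to quinolinate, and the log2 ratio of Acmsd to Qprt was -3.57 ± 1.18 in 15 fasted and -3.17 ± 0.77 in 15 fed mice (SD), a difference of -0.39 (two-sided permutation test with 100000 resamples, p = 0.286). Its mean was -2.56 ± 0.28 fed and -2.6 ± 0.88 fasted in WT LF mice, and -2.9 ± 0.3 and -3.48 ± 1.51 in KO LF mice. On HF it was -3.39 ± 1.14 fed and -4.68 ± 0.38 fasted in WT, and -3.68 ± 0.66 and -3.49 ± 0.8 in KO mice. Differences between these strata were not tested. Nnmt and Nampt both take nicotinamide, and their log2 ratio was 1.48 ± 0.94 fasted and 1.02 ± 0.71 fed, a difference of 0.46 (same permutation test, p = 0.14). Adjusted over the 2 ratios, the permutation p-values were 0.286 and 0.28. With all 32 mice the difference in the Nnmt to Nampt ratio was -0.03 (permutation test, p = 0.967), and KO HF fasted replicate 4, the library with heart transcripts, had 2.88 CPM of Nnmt and 236 CPM of Nampt. On LF the mean ratio was higher after fasting, at 0.28 ± 0.23 fed (n = 3) and 1.96 ± 1.29 fasted (n = 4) in WT and at 1.02 ± 0.81 fed and 2.12 ± 0.24 fasted in KO mice (n = 4 each). On HF it was lower, at 1.42 ± 0.45 fed and 0.65 ± 0.52 fasted in WT mice (n = 4 each) and at 1.16 ± 0.84 fed (n = 4) and 1.07 ± 0.57 fasted (n = 3) in KO mice. The difference between the diets in this ratio was not tested.

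Among 43 other genes of NAD metabolism, 35 were tested and 14 passed for fasting (40.0% of those tested, against 18.9% of all genes), 8 higher and 6 lower, with a median of 0.13 log2. Genes between tryptophan and quinolinate and of the side branches went both ways. Tdo2, which opens the tryptophan ring in liver, rose by 0.70 ± 0.10 log2 (adjusted p = 9.7e-07), and Aadat rose by 0.49 ± 0.12. Ido2 (-0.61 ± 0.13), Kyat1 (-0.66 ± 0.12) and Kyat3 (-0.49 ± 0.10) fell. Kynu, which feeds Haao, was at -0.19 ± 0.11 (adjusted p = 0.237). Of the genes that oxidise nicotinamide or its methylated form, Cyp2e1 rose by 0.93 ± 0.11 and the aldehyde oxidase Aox3 fell by 0.87 ± 0.15.

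Of the 8 kinases, carriers and repair enzymes, the transhydrogenase Nnt, whose C57BL/6J allele is known to lack internal exons (0.43 ± 0.10), the mitochondrial NAD carrier Slc25a51 (0.45 ± 0.13) and the NADH hydrolase Nudt12 (0.30 ± 0.09) rose. Of the 16 consumers tested, the mitochondrial deacetylase Sirt3 (0.29 ± 0.10) and Parp9 (0.34 ± 0.12) rose and Parp1 (-0.32 ± 0.08) and Tiparp (-0.62 ± 0.17) fell. The call of Parp9 (adjusted p = 0.0446) was lost in 20 of the 30 fits without 1 mouse, with voom (0.0678), under the replicate block (0.0616) and with age as a term (0.0509), and that of Sirt3 (0.0294) in 8 of the 30. Sirt1 (-0.09 ± 0.13) and Cd38 (0.23 ± 0.14) did not pass. With all 32 mice 7 of the 14 passed.

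**Figure D3:**
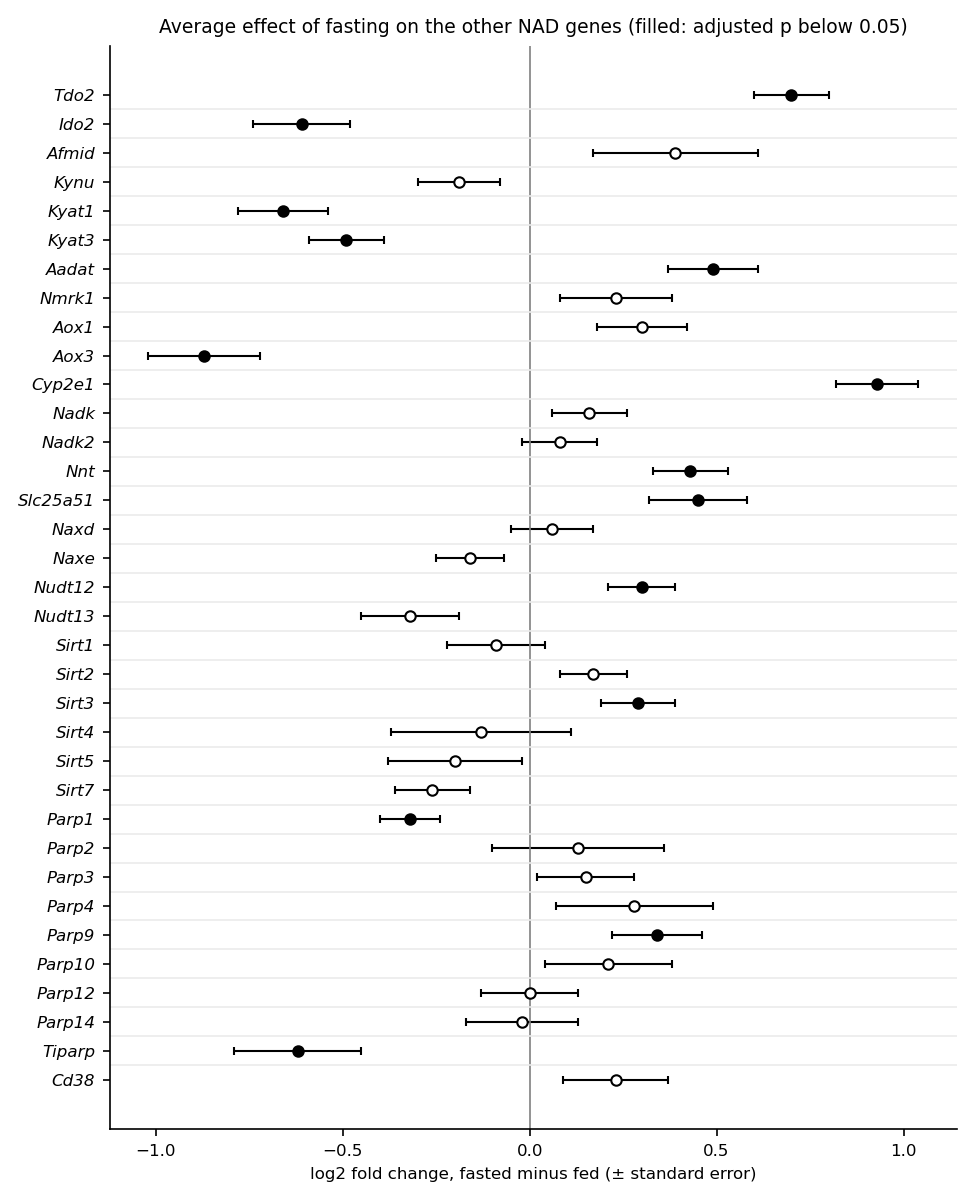
Log2 fold change with fasting ± SE, averaged over genotypes and diets, for the 35 other NAD genes tested, ordered by role from tryptophan breakdown at the top to consumers at the bottom. Filled points have an adjusted p below 0.05. They lie on both sides of 0, from -0.87 for Aox3 to 0.93 for Cyp2e1.

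Diet passed for 4 of the 35 (11.4%, against 3.49% of all genes), all higher on HF: Aox3 (1.03 ± 0.15), Ido2 (0.50 ± 0.13), Aox1 (0.46 ± 0.12) and Cyp2e1 (0.37 ± 0.11, adjusted p = 0.0481). With all 32 mice none of these passed (adjusted p 0.0704, 0.478, 0.171 and 0.701 in the same order), and Cyp2e1 was also lost in 23 of the 30 fits without 1 mouse and with voom (0.0505). On average over conditions genotype passed for none, with none at an unadjusted p below 0.05. Within conditions it passed for none by edgeR, DESeq2 or voom. In HF fed mice 4 genes (Nmrk1, Nnt, Parp2 and Parp9) had an unadjusted edgeR p below 0.05, as did 316 of all 11566 genes. Each of the 4 had an adjusted p of 1.0. The fasting effect differed between diets for 4 of the 35 beside Nnmt (11.4%, against 2.46% of all genes). Tdo2 was at 1410 to 1700 CPM in LF fed and 1909 to 4845 CPM in LF fasted mice, but at 1375 to 2524 CPM in HF fed and 1769 to 2308 CPM in HF fasted mice (-0.98 ± 0.20 log2). Slc25a51 followed the same direction (-1.22 ± 0.27). Aox3 went the other way (1.69 ± 0.30), at 133 to 244 CPM in LF fed, 24.5 to 101 CPM in LF fasted, 137 to 224 CPM in HF fed and 159 to 242 CPM in HF fasted mice, and so did Kyat1 (0.89 ± 0.24), whose call was lost in 17 of the 30 fits without 1 mouse. With all 32 mice Slc25a51 passed (adjusted p = 0.0461), and Tdo2 (0.354), Kyat1 (0.431) and Aox3 (0.313) did not.

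**Figure D4:**
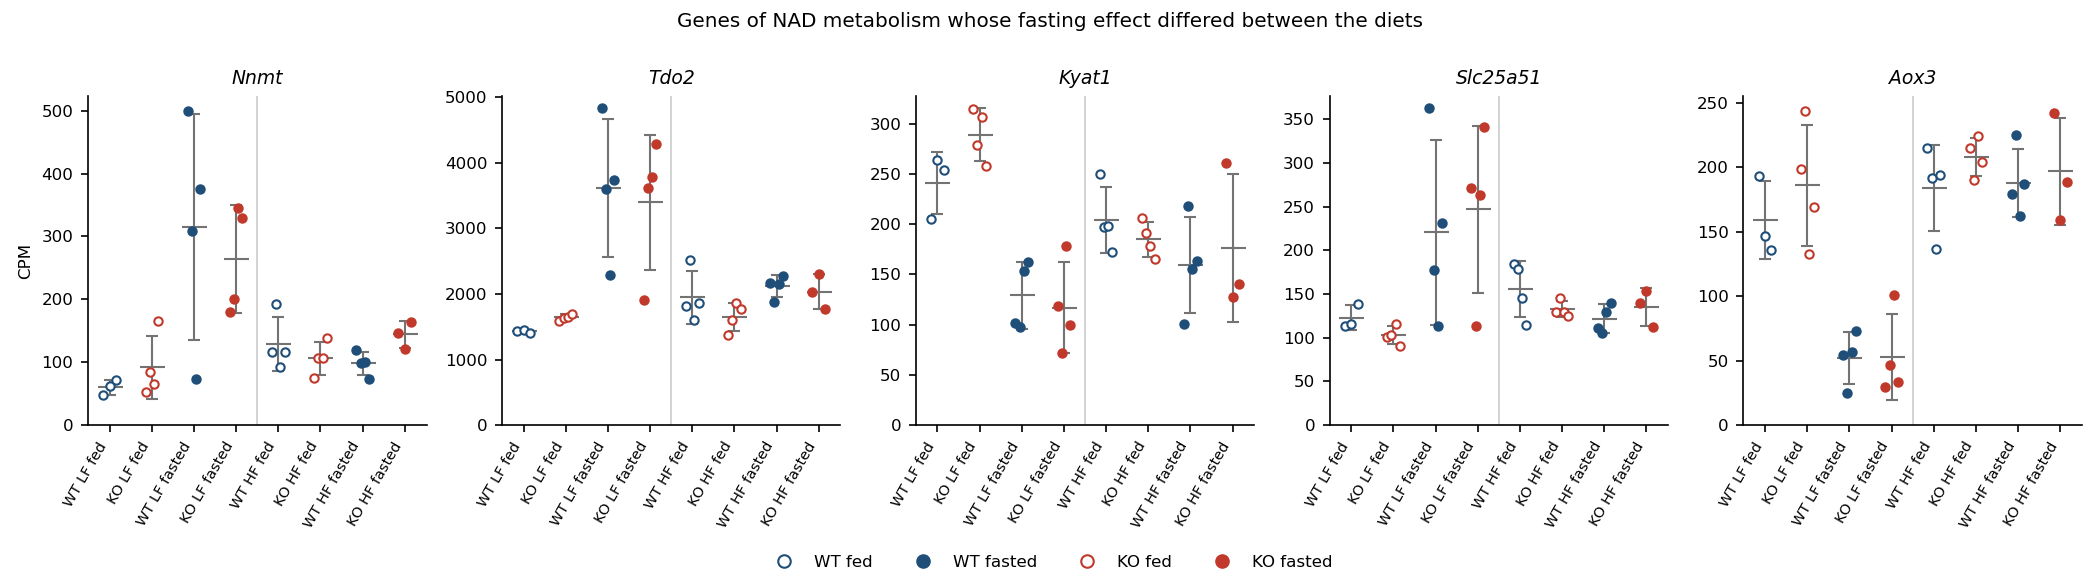
Level in CPM (vertical axes, linear from 0) of the 5 NAD genes whose fasting effect differed between diets, in the 30 mice by group, with mean ± SD. Nnmt, Tdo2 and Slc25a51 were raised in fasted LF mice and Aox3 and Kyat1 were lowered, and the 4 HF groups lay closer together.

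The genes most like each member over the 30 mice were found from the Pearson correlation of log2 CPM, which fasting, diet, depth and library share and which is given as a description. Nnmt was most like E030018B13Rik (0.88) and Tdo2 (0.86), Haao most like Cyb5b (0.92) and Cyb5r3 (0.91), and Qprt most like Qdpr (0.92) and Fasn (0.89). Nampt was most like Pcbp2 (0.80), Acmsd like Luc7l2 (0.77) and the clock gene Arntl (0.74), and Kmo like Exoc4 (0.77). For the low members the best values were smaller, at 0.64 for Naprt with Elp5, 0.59 for Nadsyn1 with Tmem9, 0.70 for Nmnat1 with Gm6493 and 0.69 for Nmnat3 with Schip1. Between members, the strongest negative value was -0.61 for Qprt with Nampt.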

How the data were processed

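Liver RNA of 32 mice was prepared with a 3′ kit and read in 50-base reads. Per the labels, the authors aligned with HISAT 0.1.5 to GRCm38, handled alignments with SAMtools 1.2 and made counts per Ensembl gene with HTSeq 0.6.1p1. The deposited table holds raw counts, without normalization. Symbols were taken from GENCODE vM21 for 19913 of 20076 IDs. The members, gene lists and tests were chosen with earlier results of these data known. All 10 members, Acadm and the genes of a wider NAD list that passed were named. The gene most like each member was also named, with the second for Nnmt, Haao, Qprt and Acmsd.

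A KO library from HF fasted mice with heart transcripts (replicate 4) and an outlying WT library from LF fed mice (replicate 2) were left out. For 30 mice, edgeR 4.0.16 (R 4.3.3) was used with TMM scaling, filterByExpr, 8 group means and robust quasi-likelihood F tests, and p-values were adjusted by Benjamini-Hochberg over 11566 genes. SEs were derived from the F statistic. Steps were tested on simulated data. Alternatives were DESeq2 1.42.0, limma voom 3.58.1, all 32 mice, other filters and scaling, lane or age as a term, single lanes, a replicate block and leaving out each mouse. Single lanes were fitted with terms for fasting, diet and genotype in place of group means. Diet within single conditions was added after the data were seen. Replicate mice differed by more than counting noise. Each library is 1 mouse. Totals of 2031053 to 4292200 counts limit precision for genes with few counts. An upstream sequence of 1 member and the comparisons that need it are not reported here.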

Additional observations from a re-analysis of the deposited data

Results flagged for a closer look

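Within groups of 4 mice, a mouse was noted where its gap to the nearest other mouse exceeded 0.829 of the group's range (Dixon's 95% limit), which chance gives in about 1 in 20 groups. Of 60 groups of 4 over the 10 genes, 3 met it. Acmsd in KO LF fasted mice had its highest mouse, replicate 3, at 57.5 CPM, with the others at 5.29 to 13.3 CPM. Nadsyn1 in KO LF fed mice had its lowest mouse at 11.5 CPM, with the others at 16.1 to 16.4 CPM, and Nmnat3 in WT HF fasted mice had its lowest mouse at 3.85 CPM, with the others at 7.15 to 7.68 CPM.

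The effect of fasting on Nnmt differed between the diets by -1.93 log2 (HF minus LF, adjusted p = 0.0147 by edgeR).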

How the results depend on the processing

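Counts of members that passed changed as follows. For fasting, 4 became 2 with all 32 mice and 0 within lane 7, and stayed within 1.5 times under the other settings. For diet, 1 became 0 with all 32 mice, with no filter, under the replicate block, within lane 7 and within lane 8, and 2 with DESeq2, limma voom or at least 10 counts in every mouse. With age as a term it stayed at 1, but Acmsd was lost (-1.14, 0.0537) and Kmo gained (0.29, 0.0261). For the difference of the fasting effect between diets, 1 became 0 with all 32 mice. For fasting in WT LF and in KO LF mice, 3 became 0 with all 32 mice and 2 with only the mice of the 2 groups compared, without Nnmt in WT LF and without Qprt in KO LF. For fasting in KO HF mice, 1 became 0 with all 32 mice, with no filter, under the replicate block and with only the mice of the 2 groups compared. For diet in WT fasted mice, 1 became 0 with all 32 mice, with no filter and under the replicate block, and 2 with DESeq2. With only the 2 groups compared it stayed at 1, with Acmsd (0.0175) in place of Nnmt (0.262). Leaving out 1 mouse gave 4 to 5 for fasting, 0 to 2 for diet, 0 to 2 for diet in WT fasted mice, 0 to 1 for fasting in KO HF, 2 to 4 in KO LF and 2 to 3 in WT LF mice. The causes were not tested. No called value changed sign. The difference in the Nnmt to Nampt ratio, not called, went from 0.46 to -0.03 with all 32 mice.

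Residuals of same-numbered mice in different groups correlated with a median of 0.00603 (-0.204 to 0.168), and 2 of 98 pairs exceeded 0.1. No pairing by replicate number was seen, which does not show that there was none. The replicate block moved the genes called for fasting from 2187 to 2124 and for diet from 404 to 360. Over all genes, diet gave 81 calls with all 32 mice, 588 with DESeq2, 53 within lane 7 and 85 within lane 8, fasting gave 344 within lane 7 and 1449 within lane 8, and the fasting by diet difference gave 22 with all 32 mice and 430 with DESeq2. Low counts limit Nmnat3, Nmnat1 and Nadsyn1 most. Acmsd had more counts than these but spread widely between mice, from 5.29 to 57.5 CPM in KO LF fasted mice.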
